A study of Homo sapiens with 12 samples.

Results

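The RAB, ARF and ARL proteins are small GTPases that direct membrane traffic, and their transcripts were followed in Huh7 cells after silencing of the calcium channel gene TRPC1. Members were chosen by gene symbol, with earlier results of these data known. ARL2, which the study reported as higher in silenced cells, was left out. Every other probe annotated to a numbered RAB, ARF or ARL gene was taken. This gave 109 of the 48803 probes of the array, for 75 genes: 88 probes for 62 RAB genes, 8 probes for 5 ARF genes and 13 probes for 8 ARL genes. A probe was tested when its detection p-value, which sets its signal against the negative control beads of the same array, was under 0.01 on 5 or more of the 12 arrays. By this filter 67 member probes of 49 genes were tested, or 61.5% of the member probes, against 40.4% of all probes annotated to 1 gene symbol.

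Huh7 is an established line of well-differentiated hepatocellular carcinoma cells. In 6 samples the cells were transfected with a vector that silences TRPC1 (siTRPC1) and in 6 samples with the same pSUPERIOR.retro.neo+gfp vector without the silencing insert (control). Each transfection used 2 µg of vector, and RNA was collected after 48 h and hybridised to an Illumina HumanHT-12 v3 bead array. No sort for cells that took up the vector is described, and nothing in the labels says that the samples of a group came from separate cultures, so p-values measure the spread between these samples, which may be technical. In such bulk RNA, fewer cells that express a gene and less RNA per cell cannot be told apart. Array 5 of each group was left out of the main fit, and the fit of all 12 arrays is given beside it. These samples had been set aside during the original work over a low correlation of their TRPC1 values between PCR and array.

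Small GTPases are active on a membrane when bound to GTP and inactive when bound to GDP. Exchange factors load them with GTP, GTPase-activating proteins trigger its hydrolysis, and effectors such as tethers, coats and motor adaptors are recruited by the active form. RAB proteins carry prenyl groups that GDI can hide in the cytosol, while ARF and many ARL proteins attach through a modified N-terminal helix. Hepatocyte-derived cells use these proteins to export lipoproteins and serum proteins and to sort receptors between the early endosome, the lysosome and the cell surface.

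Mean intensity per array was 566 to 688 in siTRPC1 and 457 to 642 in control samples, and the number of detected probes was 12435 to 13285 and 12292 to 13462. Control arrays 1 and 2 were the dimmest, at 480 and 457, and on them the median deviation of the member probes from their own means was -0.076 and -0.047 (log2), against -0.010 to 0.017 on the other control arrays. The fit without these 2 arrays is given for RAB5B, RAB37, RAB8B, PLIN3 and BICD2, and for named probes whose sign it changed. Values of other probes, RAB4B, RAB5C and RAB6A among them, are not given without these arrays. Of 11 hepatocyte and Huh7 marker genes with a probe, among them ALB, AFP and APOA1, all were detected on all 12 arrays. Of the markers of other cell types, 2 of 6 stromal genes (COL1A2 and PDGFRB), 2 of 4 leukocyte genes (CD14 and CD68) and 1 of 3 endothelial genes (PECAM1) passed the filter, while COL1A1, COL3A1, ACTA2, DCN, PTPRC, CD3E, VWF and CDH5 were detected on 0 arrays. Among the hepatocyte markers TTR was called higher in siTRPC1 cells (log2FC 0.24, adjusted p = 0.0498; adjusted p = 0.0181 with all 12 arrays). The summed normalized intensity of each list over the 10 fitted arrays overlapped between the groups. It was 235905 to 255772 in siTRPC1 and 224755 to 254309 in control samples for the hepatocyte list, 648 to 983 in siTRPC1 and 637 to 748 in control samples for the stromal list, 3287 to 3555 and 2960 to 3785 for the leukocyte list, and 1798 to 2176 and 1758 to 2304 for the endothelial list. The part of such markers in the results was not tested. The single TRPC1 probe read 8.73, 8.56, 8.50, 8.57, 8.85 and 8.60 (log2) on siTRPC1 arrays 1 to 6, against 8.77, 8.74, 8.79, 8.75, 9.05 and 8.82 on control arrays 1 to 6. Without array 5 the groups did not overlap, and the log2FC was -0.18 with an SE of 0.096 (adjusted p = 0.344, limma across all tested probes; p = 0.00794, two-sided exact permutation test, n = 5 each). With all 12 arrays the groups overlapped through siTRPC1 array 5, and the log2FC was -0.19 (adjusted p = 0.304, limma). The two-sided exact permutation test of all 12 arrays gave p = 0.0303. Array 5 was set aside over a low correlation of TRPC1 values between PCR and array, so the TRPC1 result without it is no independent test of the silencing. The study also reported lower TRPC1 transcript by RT-PCR and, at a later time, lower TRPC1 protein by western blot.

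Of the 67 tested GTPase probes, 2 were called different between TRPC1-silenced and control cells. A probe that was not called was not thereby shown to be unchanged. RAB5B, of the early endosome, and RAB37, of secretory granules, were higher in siTRPC1 cells, no member was lower, and 65 of the 67 tested probes did not pass an adjusted p of 0.05. Among all 13102 tested probes 0.786% were higher and 0.466% lower by the same rule. Of the 67 members, 12 had an unadjusted p under 0.05 (10 higher, 2 lower), where 16.9% of all tested probes did. The median log2FC of the tested members was 0.03, against -0.0024 over all tested probes, with 38 probes above 0 and 29 below. The values lay between -0.41 and 0.51, 30 of the 67 were within 0.1 of 0, and 5 were more than 0.3 from 0. Both calls were lost when arrays of a group with adjoining numbers were taken as a random block (estimated correlation 0.327), with an adjusted p of 0.13 for RAB5B and 0.0839 for RAB37, and 0 members were called without a filter or by the methods' t-test after adjustment. Over all probes, the random block called 30, the fit without a filter 34 and the methods' test 4, against 164 in the main fit. Calls thus fell over the whole array and not only among the members. In the fit of all 12 arrays, only RAB5B was called among the members, where 0.931% of all tested probes were higher and 0.649% lower.

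**Figure D1:**
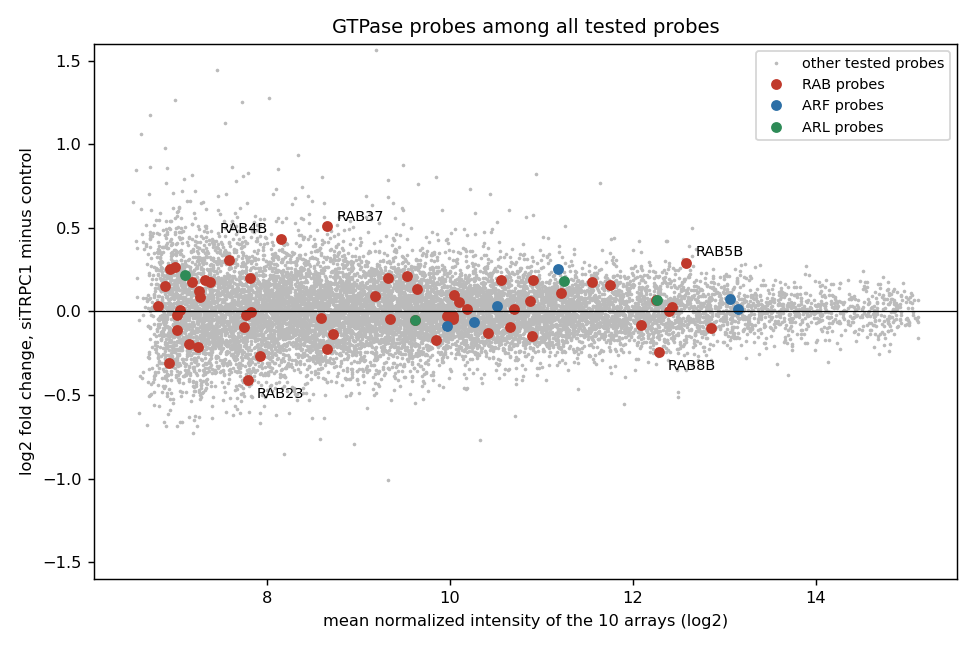
Log2 fold change (siTRPC1 minus control, y axis) against the mean normalized intensity of the 10 arrays (log2, x axis), with 1 point per tested probe. RAB, ARF and ARL probes are coloured and the other tested probes are grey. The 67 member probes lie between -0.41 and 0.51 in fold change and between 6.80 and 13.15 in intensity.

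RAB5B, called higher, is 1 of 3 paralogs that drive the docking and fusion of early endosomes and so handle what the cell has just taken up. Its probe read 12.70, 12.66, 12.82, 12.81, 12.70 and 12.65 (log2) on siTRPC1 arrays 1 to 6, against 12.32, 12.38, 12.42, 12.60, 12.42 and 12.48 on control arrays 1 to 6. Every siTRPC1 array lay above every control array, and the control array that came nearest was array 4. The means were 12.73 ± 0.082 in siTRPC1 and 12.44 ± 0.107 in control cells (SD, n = 5 each), a difference of 0.29 with an SE of 0.067 or 1.22-fold (95% interval 0.15 to 0.43, adjusted p = 0.0384, limma). With all 12 arrays the log2FC was 0.29 again (adjusted p = 0.0116), and the exact permutation test gave p = 0.00216, the smallest that 6 against 6 arrays allow. Any probe with groups apart on all 12 arrays has this p, so it adds nothing to that separation. RAB5B and RAB23 were the only member probes whose groups were apart on all 12 arrays. The share of all tested probes apart on all 12 arrays is not given here, so no background stands beside this count. Without the dim control arrays 1 and 2, which held the lowest RAB5B values, the log2FC was 0.23 (adjusted p = 0.138). With 1 array left out in turn, RAB5B passed the test only without control array 4 or control array 6, and without each of the other 8 arrays the adjusted p was 0.0543 to 0.111.

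The other RAB5 paralogs did not pass the test. RAB5A read 10.96, 10.79, 10.86, 10.66, 10.90 and 10.84 (log2) on siTRPC1 arrays 1 to 6, against 10.95, 11.06, 10.98, 10.93, 10.82 and 10.94 on control arrays 1 to 6. The groups overlapped, through siTRPC1 array 1 and control array 5. The log2FC was -0.15 with a 95% interval of -0.30 to 0.0024 (adjusted p = 0.306, limma). The 2 RAB5C probes, annotated to different transcripts, had log2FC of 0.18 and 0.19 (adjusted p = 0.281 and 0.195), and their groups overlapped too. For the second, ILMN_2399140, the overlap was slight, with siTRPC1 array 6 at 10.5437 and control array 4 at 10.5449 (log2). Whether the paralogs differed from each other in response was not tested.

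The sequences upstream of the 3 RAB5 genes are shown because RAB5B was the member called in both fits and its paralogs were not. They are the 250 bases that precede the annotated start of each gene in RefSeq (GRCh38.p14), read 5′ to 3′ on the strand of the gene, and capitals mark matches on either strand to the motifs listed after them. RAB5B lies on the plus strand at chr12:55973699-55973948, RAB5A on the plus strand at chr3:19946847-19947096 and RAB5C on the minus strand at chr17:42154990-42155239.
RAB5B: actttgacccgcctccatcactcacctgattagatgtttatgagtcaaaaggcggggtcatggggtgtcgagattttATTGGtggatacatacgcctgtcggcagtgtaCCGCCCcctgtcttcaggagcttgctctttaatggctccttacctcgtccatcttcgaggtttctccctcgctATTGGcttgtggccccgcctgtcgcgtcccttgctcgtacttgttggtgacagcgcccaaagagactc
RAB5A: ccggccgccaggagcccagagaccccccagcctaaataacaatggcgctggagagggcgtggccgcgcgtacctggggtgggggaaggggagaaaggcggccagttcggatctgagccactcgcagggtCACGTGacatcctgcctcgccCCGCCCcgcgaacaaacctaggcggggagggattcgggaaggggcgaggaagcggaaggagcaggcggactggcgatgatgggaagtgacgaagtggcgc
RAB5C: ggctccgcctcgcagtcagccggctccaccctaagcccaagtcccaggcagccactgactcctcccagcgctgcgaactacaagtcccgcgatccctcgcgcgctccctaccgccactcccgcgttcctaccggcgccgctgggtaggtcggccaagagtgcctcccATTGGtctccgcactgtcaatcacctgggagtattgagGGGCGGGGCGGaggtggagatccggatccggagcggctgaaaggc

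The motifs were CACGTG, the E box at the core of the CLEAR element of lysosomal genes, ACGTGGC, the core of a Golgi stress element, GGGCGG, the GC box, and CCAAT, the CCAAT box, and the first pair can overlap by sharing ACGTG. An upstream sequence was at hand for 40 of the 49 tested genes. ARF4, ARL14, RAB12, RAB15, RAB1A, RAB2A, RAB33B, RAB37 and RAB38 had no entry. RAB5A held 1 E box and 1 GC box, RAB5B held 1 GC box and 2 CCAAT boxes, and RAB5C held 2 overlapping GC boxes and 1 CCAAT box. None of the 3 held the Golgi stress core. Among the 40 genes, 34 held a GC box (85%, against 42.3% of 27305 upstream sequences), 11 a CCAAT box (27.5%, against 33%), 5 an E box (12.5%, against 6.49%) and 3 the Golgi stress core (7.5%, against 2.85%). These matches are a description of the letters and not of bound sites. The 40 genes had passed the detection filter, while the 27305 sequences were not filtered for detection. The shares are thus of unlike sets, and enrichment was not tested.

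RAB4B, a second endosomal GTPase, acts in the fast return of receptors to the surface. One of its probes read 8.46, 8.35, 8.56, 8.23, 8.24 and 8.26 (log2) on siTRPC1 arrays 1 to 6, against 7.74, 7.85, 8.08, 7.94, 8.27 and 8.06 on control arrays 1 to 6. The groups were apart on the 10 fitted arrays, and control array 5, which was left out, fell among the siTRPC1 values. The log2FC was 0.44 with an SE of 0.12 (adjusted p = 0.0743), and 0.36 with all 12 arrays (adjusted p = 0.102). The second RAB4B probe gave 0.20 (adjusted p = 0.565). RAB4B shares readthrough transcripts with its neighbours MIA and EGLN2 in the RefSeq annotation, and whether a probe reads them was not tested. RAB11A, of the slow recycling endosome, ranged from 12.25 to 12.41 in siTRPC1 and from 12.12 to 12.40 in control cells (log2), with a log2FC of 0.07 (95% interval -0.07 to 0.20).

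**Figure D2:**
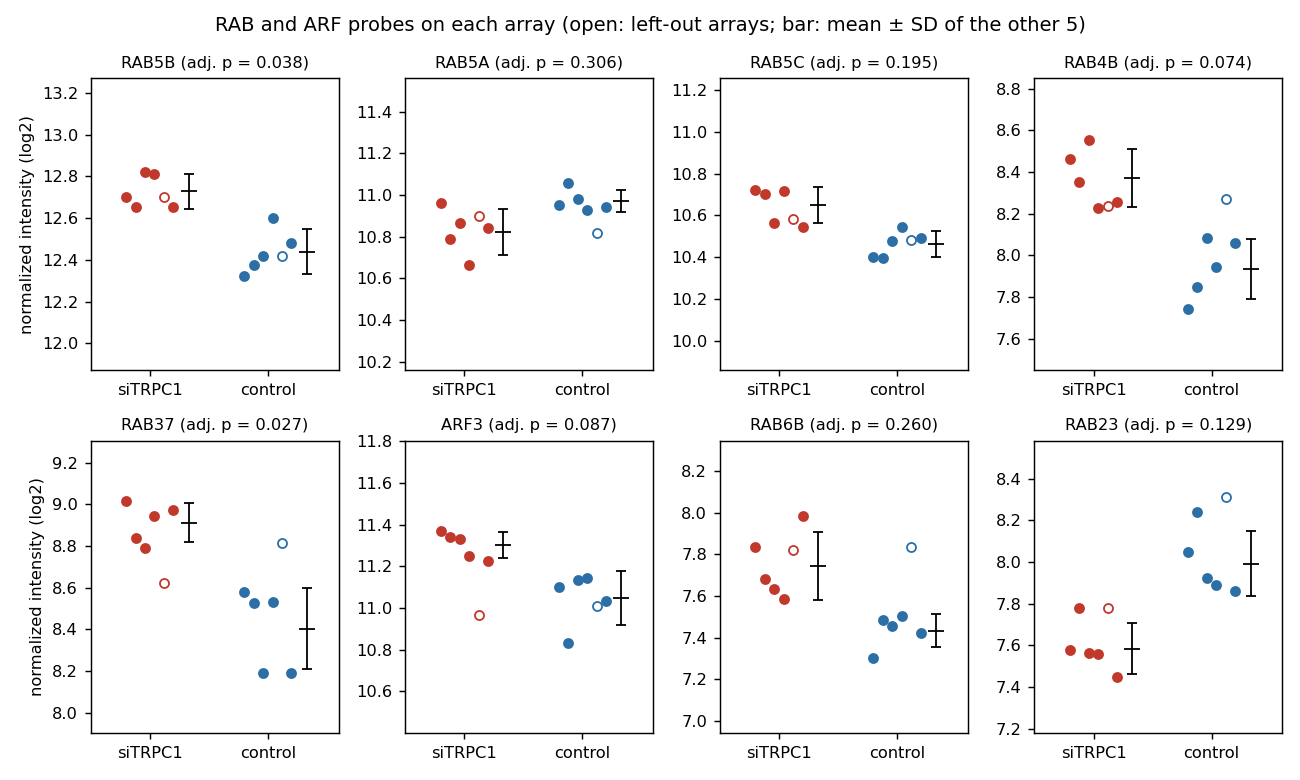
Normalized intensity (log2, y axis, the same span of 1.4 in each panel) of 8 member probes on the siTRPC1 and control arrays. Filled points are the 10 fitted arrays, open points the left-out array 5 of each group, and the bar beside each group is the mean ± SD of its 5 fitted arrays. The groups of RAB5B and RAB23 stand apart on all 12 arrays, whereas the open control points of RAB37, RAB4B and RAB6B lie among or near the siTRPC1 points.

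Of the 14 tested probes for the early and recycling endosome and the plasma membrane, 9 had a log2FC above 0 and 5 below, the median was 0.11, and RAB5B was the single call. ARF6, which acts at the plasma membrane, was detected on 2 of 12 arrays, and RAB11B and RAB14 on 1 each, so these were not tested.

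RAB37, the second called gene, belongs to the GTPases of regulated exocytosis and is known from granules of mast cells. Its called probe (ILMN_2255579) read 9.02, 8.84, 8.79, 8.94, 8.62 and 8.97 (log2) on siTRPC1 arrays 1 to 6, against 8.58, 8.53, 8.19, 8.53, 8.81 and 8.19 on control arrays 1 to 6. The groups were apart on the fitted arrays, but on array 5 the order was turned, with 8.62 in siTRPC1 and 8.81 in control cells. The means were 8.91 ± 0.095 in siTRPC1 and 8.40 ± 0.196 in control cells (SD, n = 5 each), a difference of 0.51 with an SE of 0.11 or 1.42-fold (adjusted p = 0.0267, limma). With all 12 arrays the difference was 0.39 and missed the threshold (adjusted p = 0.0706). Without control arrays 1 and 2 it was 0.61 (adjusted p = 0.0112). With 1 array left out in turn, RAB37 missed the threshold without siTRPC1 array 1, 3, 4 or 6 or control array 3, at adjusted p of 0.0554 to 0.0807, and passed it in the other 5 fits.

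The other probes of RAB37 did not share this call. ILMN_2243912 had a log2FC of 0.27 (adjusted p = 0.513) on 8 arrays with detection, and ILMN_1796136 had 0.03 (adjusted p = 0.959) on 5. Both are annotated to another transcript than the called probe. A further probe annotated to the same transcript as the called one was detected on 0 of 12 arrays. In the RefSeq annotation RAB37 overlaps CD300LF and an antisense gene, and whether the probes read these was not tested.

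Among the other GTPases of exocytosis, RAB8A and RAB8B carry vesicles to the cell surface, and RAB27A, RAB27B and RAB3C serve secretory granules and exosomes. RAB8B read 12.23, 12.24, 11.95, 12.09, 12.17 and 12.29 (log2) on siTRPC1 arrays 1 to 6, against 12.45, 12.75, 12.25, 12.29, 12.31 and 12.28 on control arrays 1 to 6. The groups overlapped by a small margin, and the highest value was that of the dim control array 2. The log2FC was -0.25 with an SE of 0.090 (adjusted p = 0.166), and -0.11 without control arrays 1 and 2 (adjusted p = 0.565). RAB8A gave 0.03 (95% interval -0.11 to 0.17). RAB27B (-0.31), the 2 probes of RAB27A (-0.04 and 0.25) and the named RAB3C probe (-0.21) were not called, and of these only 1 RAB27A probe was detected on all 12 arrays. Over the 13 probes of this route, 7 were above 0 and 6 below, with a median log2FC of 0.03.

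No probe of the route between the endoplasmic reticulum and the Golgi passed the test. ARF3, a class I ARF of the trans-Golgi network, read 11.37, 11.34, 11.33, 11.25, 10.97 and 11.23 (log2) on siTRPC1 arrays 1 to 6, against 11.10, 10.83, 11.13, 11.14, 11.01 and 11.04 on control arrays 1 to 6. The fitted groups were apart, and siTRPC1 array 5, left out of the fit, was the lowest of its group and lay below control array 5. The log2FC was 0.25 with an SE of 0.074 (adjusted p = 0.0873), and 0.21 with all 12 arrays (adjusted p = 0.152). RAB6B, a paralog of the Golgi protein RAB6A known mainly from neurons, ranged from 7.58 to 7.98 in siTRPC1 and from 7.30 to 7.84 in control cells (log2) over the 6 arrays of each group. Its control range reached this high only through array 5, and the fitted groups were apart (log2FC 0.31, SE 0.14, adjusted p = 0.26). The RAB6A probe detected on all arrays gave -0.17 (adjusted p = 0.422).

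RAB1A, which acts in tethering of vesicles that leave the endoplasmic reticulum, and ARL1, which brings golgins to the trans-Golgi, had log2FC of 0.19 (adjusted p = 0.202) and 0.18 (adjusted p = 0.243). RAB18, of lipid droplets and the endoplasmic reticulum, ranged from 7.46 to 8.25 in siTRPC1 and from 7.74 to 8.21 in control cells (log2), with a log2FC of -0.27 (adjusted p = 0.369). ARF1, ARF4 and ARF5, which recruit COPI and other coats, lay within 0.1 of 0 on all their tested probes. For ARF1 these were 0.07 and -0.08, for ARF4 0.01 and -0.06, and for ARF5 0.03 with 95% intervals between -0.27 and 0.25. Under median centring of the arrays, which moved the median of all tested probes to 0.08, the negative values of ARF1 and ARF4 became 0.01 and 0.02. Of the 19 probes of this route, 11 were above 0 and 8 below, with a median of 0.01.

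**Figure D3:**
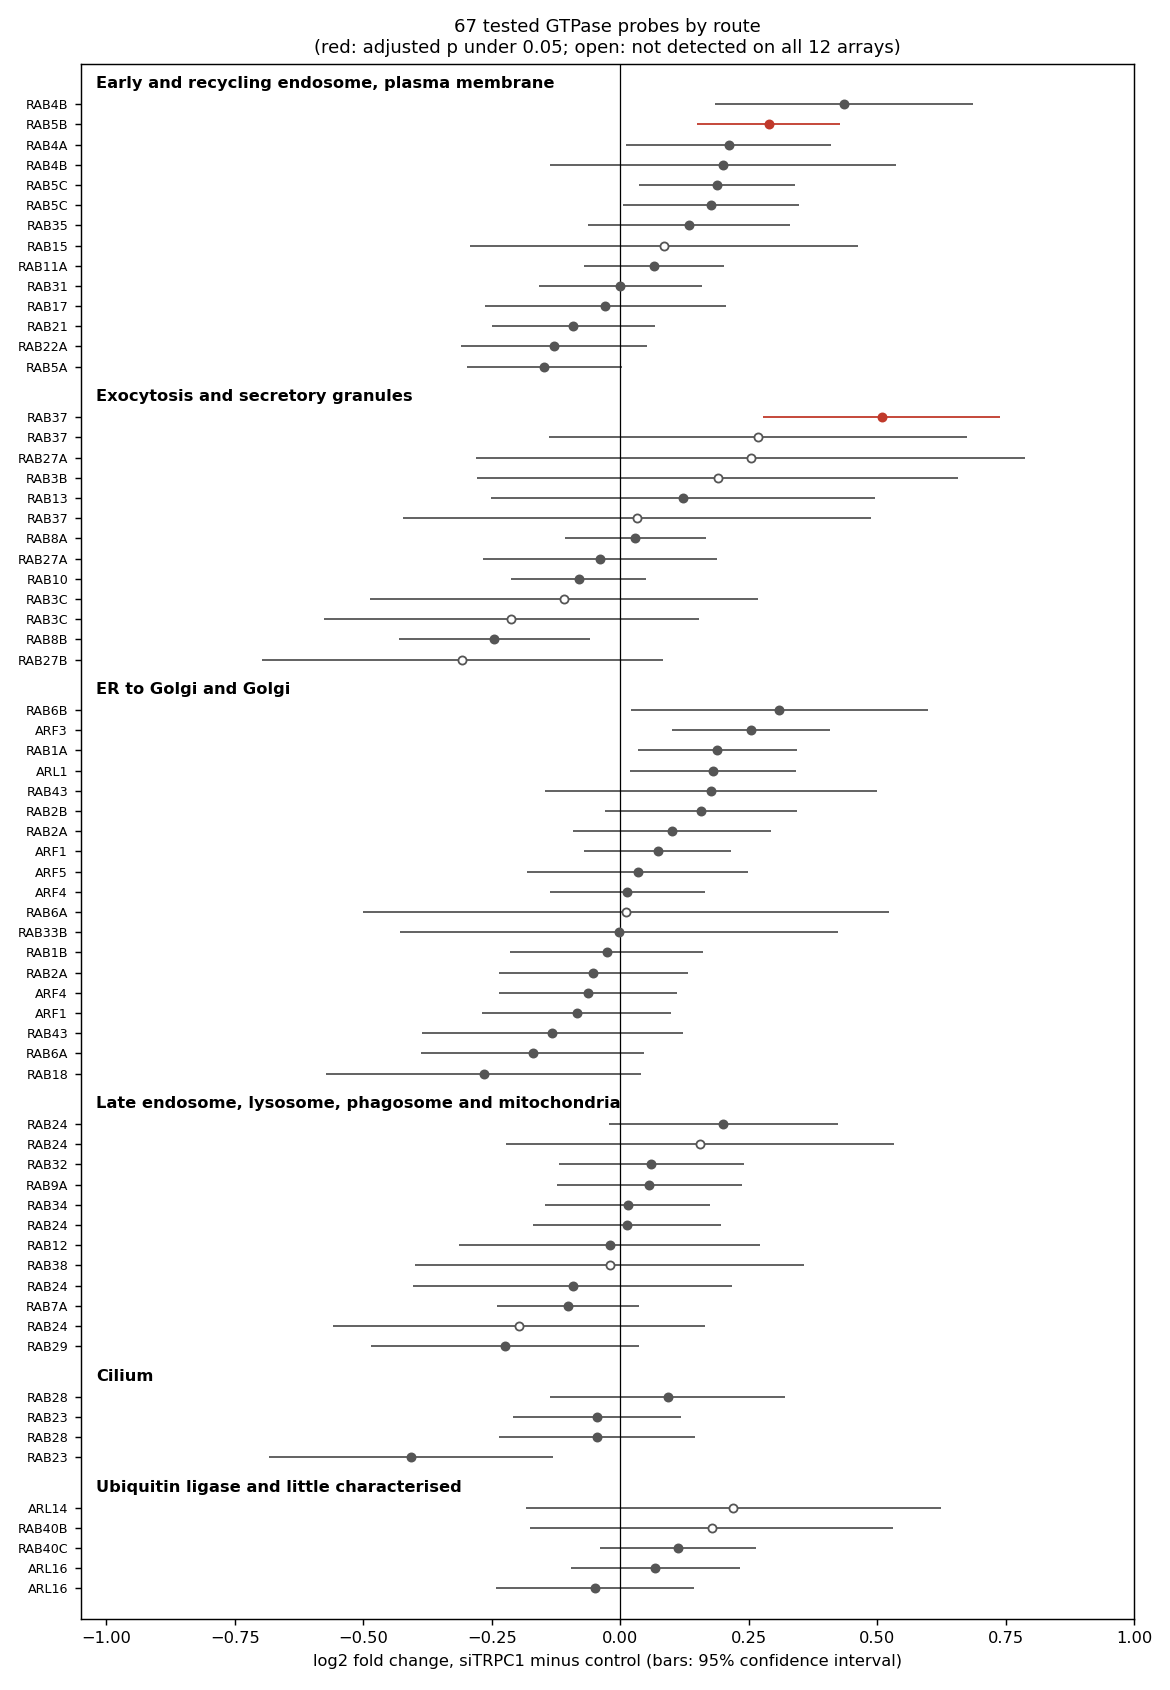
Log2 fold change (siTRPC1 minus control, x axis) with its 95% confidence interval for the 67 tested probes, 1 line per probe, grouped by trafficking route and ordered within each. The 2 red points are RAB37 and RAB5B, and open points are the 14 probes that were not detected on all 12 arrays, with a median half-width of the interval of 0.38, against 0.19 for the filled points.

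RAB23, which in the mouse holds back Hedgehog signalling at the primary cilium, had the lowest log2FC of the members. Its probe ILMN_1667417 read 7.58, 7.78, 7.57, 7.56, 7.78 and 7.45 (log2) on siTRPC1 arrays 1 to 6, against 8.05, 8.24, 7.93, 7.89, 8.31 and 7.86 on control arrays 1 to 6. Every siTRPC1 array was below every control array. The log2FC was -0.41 with an SE of 0.13 (adjusted p = 0.13), and -0.43 with all 12 arrays (adjusted p = 0.0711), so RAB23 was not called in either fit. A second RAB23 probe, annotated to the same transcript and also detected on all 12 arrays, gave -0.05 with a 95% interval of -0.21 to 0.12. On the 10 fitted arrays 5 member probes (RAB5B, RAB37, RAB4B, RAB6B and ARF3) lay above control with no overlap and 1 (RAB23) below, where 2.08% and 1.77% of all tested probes did. The cilium route held 4 tested probes, 1 above 0 and 3 below, with a median of -0.05, and ARL3, a carrier GTPase of the cilium, was detected on 4 arrays and not tested.

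RAB7A, which governs the late endosome and its fusion with the lysosome, ranged from 12.63 to 12.87 in siTRPC1 and from 12.77 to 13.01 in control cells (log2). The groups overlapped, and the log2FC was -0.10 with a 95% interval of -0.24 to 0.04. RAB9A, of the return from late endosomes to the Golgi, gave 0.06 (adjusted p = 0.784). RAB29, which recruits the kinase LRRK2 to membranes, gave -0.22 (adjusted p = 0.374). The 5 probes of RAB24, a GTPase of autophagy, ran from -0.20 to 0.20 with none called. Over the 12 probes of the late endosome, lysosome, phagosome and mitochondria, 6 were above and 6 below 0, with a median of -0.0041. The last 5 probes, for ubiquitin ligase subunits of the RAB40 kind and for little characterised ARL genes, had a median of 0.11 with 4 above 0. ARL14, studied in the movement of MHC class II vesicles, was among these at 0.22 (adjusted p = 0.604).

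Values of different probes of the same gene were compared, without a test of their difference. Of 14 genes with more than 1 tested probe, 9 had probes on both sides of 0, and in 4 genes the log2FC differed by more than 0.3 between probes. These were RAB37 with a range of 0.48, RAB24 with 0.40, RAB23 with 0.36 and RAB43, of Golgi traffic, with 0.31 (0.18 and -0.13). In all 14 genes the 95% intervals of the probes overlapped, those of the called RAB37 probe included. The other 35 tested genes were read by 1 tested probe each, RAB5B among them, so no second tested probe bears on its value.

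**Figure D4:**
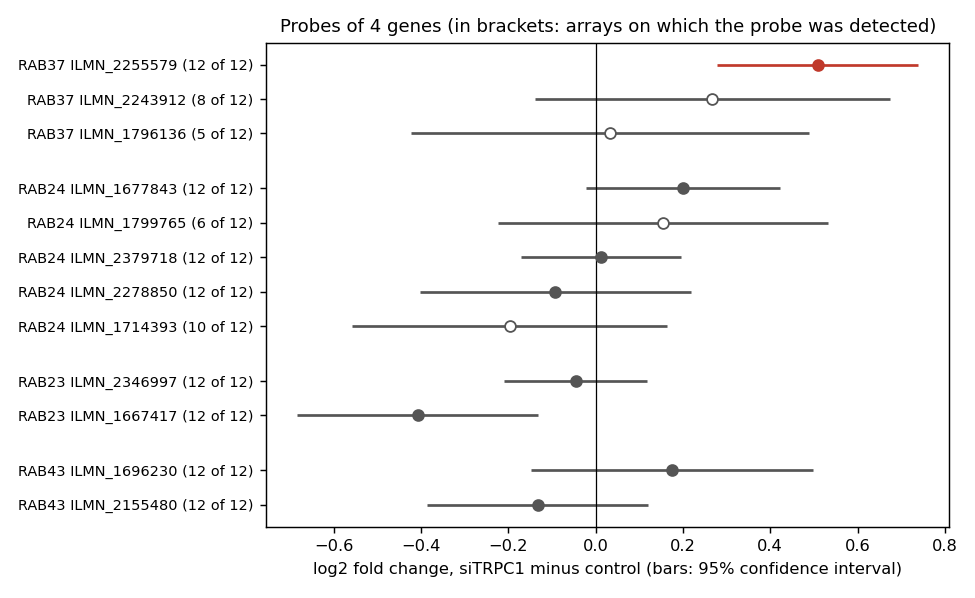
Log2 fold change (siTRPC1 minus control, x axis) with its 95% confidence interval for each tested probe of RAB37, RAB24, RAB23 and RAB43. The number of arrays with detection stands in brackets after the probe name, filled points are probes detected on all 12 arrays, and the called RAB37 probe is red. Within each of the 4 genes the probes span more than 0.3.

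How small a change could be seen depended on the signal. The 53 tested probes detected on all 12 arrays had mean levels of 7.25 to 13.15 (log2), a median SD within groups of 0.14 and a median half-width of the 95% interval of 0.19. The 14 probes detected on 5 to 11 arrays had levels of 6.80 to 7.32, a median SD of 0.27 and a median half-width of 0.38. The 42 probes below the filter had levels of 5.05 to 6.85, where the array gives no more than a bound, and 30 of the 109 were detected on 0 arrays. Just inside the filter lay RAB37 ILMN_1796136 on 5 arrays, with means of 6.82 in siTRPC1 and 6.79 in control cells (log2). Just outside lay ARL3, with 7.04 and 6.65, and a further RAB43 probe, with 6.80 and 6.76, both on 4 arrays. Besides ARF6, ARL3, RAB11B and RAB14, the genes with no tested probe were ARL6, ARL9, ARL11, ARL15, RAB3A, RAB3D, RAB6C, RAB6D, RAB7B, RAB9B, RAB19, RAB20, RAB25, RAB26, RAB30, RAB33A, RAB36, RAB39A, RAB39B, RAB40A, RAB41 and RAB42.

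The proteins that switch these GTPases, or are recruited by them, were followed through 286 listed genes, of which 209 were tested on their brightest probe. In siTRPC1 cells 1 was higher (PLIN3) and 1 lower (BICD2), where 0.786% of all tested probes were higher and 0.466% lower, so these counts were near the background. The median log2FC of the 209 was -0.02 with 91 above 0 and 118 below, against 49.3% above 0 over all tested probes. PLIN3 coats lipid droplets and was described as a partner of RAB9 in receptor retrieval. It read 12.39, 12.58, 12.60, 12.67, 12.61 and 12.62 (log2) on siTRPC1 arrays 1 to 6, against 11.86, 11.94, 12.26, 12.20, 12.43 and 12.50 on control arrays 1 to 6. The groups overlapped, and the lowest control values were those of the dim arrays 1 and 2. The log2FC was 0.42 with an SE of 0.095 (adjusted p = 0.0325), and 0.38 with all 12 arrays (adjusted p = 0.028). Without control arrays 1 and 2 it was 0.25 (adjusted p = 0.137). With 1 array left out in turn, PLIN3 passed without siTRPC1 array 1 or control array 3, 4 or 6, and without each of the other 6 arrays the adjusted p was 0.0701 to 0.0996.

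BICD2 links RAB6 vesicles to the dynein motor. It read 11.16, 11.16, 11.39, 11.29, 11.31 and 11.24 (log2) on siTRPC1 arrays 1 to 6, against 11.58, 11.51, 11.51, 11.52, 11.55 and 11.51 on control arrays 1 to 6. Every siTRPC1 array was below every control array, and the control arrays lay within a narrow span. The log2FC was -0.28 with an SE of 0.067 (adjusted p = 0.0455), and -0.27 with all 12 arrays (adjusted p = 0.0152). Without control arrays 1 and 2 it was -0.27 (adjusted p = 0.0937), and with the replicate number as a block the adjusted p was 0.0727. With 1 array left out in turn, BICD2 passed only without control array 6, and the other 9 fits gave an adjusted p of 0.0594 to 0.0994. With arrays 1 and 2, and arrays 3 and 4, of each group as random blocks neither PLIN3 (adjusted p = 0.0839) nor BICD2 (adjusted p = 0.138) was called. ASAP1, a GTPase-activating protein for ARFs, was called lower only with all 12 arrays (log2FC -0.27, adjusted p = 0.0315, against -0.23 and 0.0987 on the 10). A dimmer ASAP1 probe, outside the count of brightest probes, gave -0.37 on the 10 arrays (adjusted p = 0.0484). The tested genes of the RAB cycle core list were GDI2, RABGGTA, RABGGTB, RABAC1, YIPF1, YIPF5 and YIF1A. None of these 7 was called. The same held for the 36 RAB exchange factors (13 above 0, 23 below, median -0.07), 26 RAB GTPase-activating proteins (12 and 14, median -0.0069), 8 ARF exchange factors (3 and 5, median -0.06), 39 ARF effectors and coats (21 and 18, median 0.0054) and 26 ARL partners (10 and 16, median -0.01). The 21 ARF GTPase-activating proteins had 6 above 0 and 15 below, with a median of -0.06.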

How the data were processed

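Each of the 12 bead arrays holds 48803 probes. The deposited intensity values are linear bead signals, background-subtracted by the authors in GenomeStudio and not scaled between arrays, and a detection p-value was deposited beside each of them. The deposited log2 values are the authors' quantile normalization of all 12 arrays in lumi, used here only as an alternative. Their column medians were all 6.16, they correlated with the log2 intensities of the same arrays at 0.998 or more, so scale and direction were settled, and genes were not centred. Versions of both programs are not given in the sources used here.

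Here the intensities went through neqc (limma 3.58.1, R 4.3.3), that is, normexp background correction based on detection p-values, an offset of 16 and a quantile step over all 12 arrays. The filter kept probes detected (p under 0.01) on 5 or more of 12 arrays. They were fitted on 10 arrays with lmFit and eBayes (trend), with group as the only term, and p-values were adjusted over all 13102 tested probes by Benjamini and Hochberg. A call is an adjusted p under 0.05. Exact permutation tests were two-sided over all 252 splits of 5 against 5 arrays (smallest p 0.00794) or 924 of 6 against 6 (smallest p 0.00216). The fit was tested on simulated data with independent noise on each array. That test cannot show how the fit behaves where arrays are correlated. A correlation of 0.327 was estimated within the blocks of arrays 1 and 2 and of arrays 3 and 4 of each group. The study's Rank Product test was not repeated. The number of arrays limits the precision, and the 95% intervals come from the limma fit.

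Gene names came from the platform's annotation table, in which 28098 probes have 1 gene symbol, 13 several and 20692 none, and all 75 member symbols were those of RefSeq for the same gene ID. Upstream sequences came from RefSeq (GRCh38.p14). Named genes were the called probes, the 8 probes with the highest and the 8 with the lowest log2FC, genes whose probes differed by more than 0.3, probes at the edge of the filter, familiar organelle markers, and called regulators. Members, routes and gene lists were chosen with earlier results of these data known. Across 23 alternatives the normalization, background correction, offset, filter, arrays, blocks, weights and test were changed in turn.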

Additional observations from a re-analysis of the deposited data

Results flagged for a closer look

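In 4 of 80 groups of 5 fitted values of the named probes, a single array lay far from the other 4, by a gap of more than 0.71 of the group's whole range. At 1 in 20, chance flags about 4. The RAB37 probe ILMN_2243912 read 7.40 (log2) on siTRPC1 array 3, against 7.03 to 7.08 on the other siTRPC1 arrays. The RAB24 probe ILMN_1714393 read 6.67 on the same siTRPC1 array 3, against 7.11 to 7.19 on the others, and RAB7A read 12.63 there, against 12.83 to 12.87. The RAB24 probe ILMN_2379718 read 9.94 on control array 2, against 10.22 to 10.27 on the other control arrays. None of these probes was called, and none of the called RAB5B and RAB37 groups had such an array.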

How the results depend on the processing

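The main fit called 2 member probes, and 2 were also called with the deposited lumi values, without normexp, with offset 50, with detection on 5 of the 10 fitted arrays or on all 12, and with array weights. Over all tested probes these fits called 150 to 193. The member count was 1 under median centring (RAB37), with all 12 arrays (RAB5B) and without control arrays 1 and 2 (RAB37). Over all tested probes the calls in these fits were 136, 207 and 111, in that order. The member count was 0 without a filter (34 of all probes called). It was also 0 with arrays 1 and 2, and 3 and 4, of each group as random blocks (correlation 0.327, 30 of all probes called). By the methods' t-test after Benjamini-Hochberg it was 0 (4 of all probes called), with 10 member probes at an unadjusted p up to 0.05. With 1 array left out the member count was 0 to 2, where 37 to 306 of all tested probes were called. RAB5B passed in 10 of 23 alternatives, with a log2FC of 0.23 to 0.35 and adjusted p of 0.0116 to 0.138, and RAB37 in 14 of 23, with 0.39 to 0.61 and 0.0112 to 0.117. Of the regulators and effectors, 2 were called in the main fit, 1 under median centring (PLIN3), 1 without control arrays 1 and 2 (RAB3IL1), 3 with all 12 arrays, 0 without a filter, 0 with the random block, 0 by the methods' t-test (29 at an unadjusted p up to 0.05), and 0 to 4 with 1 array left out. The totals over all probes in the same fits were those given above. The replicate numbers did not pair the samples (correlations of same-numbered arrays -0.05 to 0.01). With the replicate block 2 member probes and 1 listed gene (PLIN3) were called, where 152 of all tested probes were.

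Of 40 named probes, 11 changed sign in some alternative, each from an uncalled value near 0. Under median centring, which moved the median of all tested probes to 0.08, RAB23 ILMN_2346997 gave 0.050, RAB24 ILMN_2278850 0.012, ARF1 ILMN_2330948 0.0094, ARF4 ILMN_1723884 0.021 and RAB27A ILMN_1665859 0.068. Without control arrays 1 and 2, RAB24 ILMN_2379718 gave -0.052, ARF4 ILMN_1719518 -0.095, ARF5 -0.15, RAB27A ILMN_1665859 0.015 and RAB9A -0.019. With array weights, RAB24 ILMN_2379718 gave -0.015, ARF4 ILMN_1719518 -0.029 and ARF5 -0.041. With all 12 arrays RAB24 ILMN_2379718 gave -0.023, and with offset 50 RAB6A ILMN_2377862 gave -1.9e-05. With 1 array left out, the ranges were -0.048 to 0.050 for RAB24 ILMN_2379718, -0.14 to 0.13 for RAB37 ILMN_1796136, -0.041 to 0.050 for ARF4 ILMN_1719518, -0.041 to 0.11 for ARF5, -0.081 to 0.010 for RAB27A ILMN_1665859 and -0.21 to 0.15 for RAB6A ILMN_2377862. Where values moved, the cause was not tested. Signal limited the 14 probes detected on 5 to 11 arrays, whose 95% intervals had a median half-width of 0.38.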
